A study of Mus musculus with 3 samples.

Results

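Retnlg-negative chemokine neutrophils are defined here as cells of a neutrophil gate that carried no transcript of Retnlg and at least 1 transcript of the chemokine genes Ccl3, Ccl4 or Cxcl2. The gate asked for at least 300 genes, at most 15% mitochondrial transcripts, at least 100 transcripts of S100a8, S100a9, Il1b and G0s2 per 10000, and at least 1 of Csf3r, Cxcr2, G0s2 and Hdc. It allowed at most 2 transcripts of C1qa, C1qb and C1qc, which mark macrophages, and at most 3 of Krt8 and Krt18, which mark the tumour cells. Of 28943 cell barcodes, 28522 passed the limits on genes and mitochondrial share, 1890 passed the gate and 513 were members (208 wild type, 167 Mfn2 knockout and 138 Rhot1 knockout cells). The gated cells that were not members comprised 1355 with Retnlg, and 22 with neither Retnlg nor a chemokine transcript. Members were thus selected on the measured UMIs of these 16 genes, so their levels below are a description without a test.

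The cells came from tumours grown by injecting LLC1 cells, the Lewis lung carcinoma line, into the tibial marrow of 8-week-old mice and collected at day 14. The hosts were wild type, DMP1-Cre Mfn2-/- or DMP1-Cre Rhot1-/-. Dmp1 is an osteocyte gene, so the Cre is meant to act in osteocytes, and neutrophils are not the intended target. Where the Cre acted was not measured here. Mfn2 is a mitochondrial fusion protein and Rhot1 couples mitochondria to transport motors. The wild-type label names no Cre, so Cre and the deletion cannot be told apart. Tumours of 3 mice were pooled into 1 droplet library per genotype, dissociated with collagenase at 2 mg/ml for 1 h and sorted for live cells, and transcripts were counted as unique molecular identifiers (UMIs). With 1 pooled library per genotype, no test between genotypes was possible.

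Neutrophils are short-lived granulocytes that leave the marrow with granule proteins already made and change their transcripts once in tissue. Retnlg encodes a resistin-like secreted protein found in mature circulating mouse neutrophils, together with Ly6g, Mmp8 and the S100a8 and S100a9 calprotectin subunits. Cxcl2 attracts neutrophils through Cxcr2, while Ccl3 and Ccl4 attract monocytes and lymphocytes. NF-kB drives these chemokine genes and also its own inhibitors, such as Nfkbia and Tnfaip3, while C/EBP factors drive many granule genes.

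The promoters of Cxcl2 and Retnlg, both genes of the rule, are shown so that their sequences can be compared. They are RefSeq windows of GRCm38.p6 from 250 bases before to 50 after a start, on the sense strand, with matches to an NF-kB or a C/EBP motif on either strand in capitals. The Cxcl2 window is chr5:90903649-90903948 on the plus strand and the Retnlg window is chr16:48872358-48872657 on the plus strand.
Cxcl2: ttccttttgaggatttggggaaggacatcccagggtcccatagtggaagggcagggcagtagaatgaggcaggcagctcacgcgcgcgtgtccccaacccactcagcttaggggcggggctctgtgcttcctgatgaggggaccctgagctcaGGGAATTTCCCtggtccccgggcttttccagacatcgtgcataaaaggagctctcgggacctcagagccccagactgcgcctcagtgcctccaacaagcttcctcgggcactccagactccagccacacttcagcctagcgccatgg
Retnlg: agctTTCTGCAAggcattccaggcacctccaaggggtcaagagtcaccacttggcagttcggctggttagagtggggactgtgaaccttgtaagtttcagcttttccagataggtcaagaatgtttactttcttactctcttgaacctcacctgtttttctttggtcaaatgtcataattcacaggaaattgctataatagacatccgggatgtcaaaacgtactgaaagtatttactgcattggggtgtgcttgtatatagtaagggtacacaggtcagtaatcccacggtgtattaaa
The capitals in the Cxcl2 window are 2 overlapping NF-kB matches, and those in the Retnlg window are 1 C/EBP match (TTGCNNAA, read on the other strand). The Ccl3 window, chr11:83649329-83649628 on the minus strand, held neither motif. Ccl4 had no usable RefSeq window, so its promoter was not examined. Among all 32851 RefSeq promoter windows, 8.46% held the NF-kB motif and 10.8% the C/EBP motif.

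Each member carried few UMIs. The median was 1031.5 in wild type, 886 in Mfn2 knockout and 1096.5 in Rhot1 knockout cells, against 1308, 1209.5 and 1477.5 in Retnlg-positive neutrophils. Members were thus shallower than the cells they are compared with, and at lower depth a cell is more likely to show no Retnlg. A small set of deep members stood apart: 21, 8 and 14 cells held 2500 UMIs or more, and they carried 34.6%, 18.4% and 28.2% of the members' UMIs. In 4 of the wild-type deep cells lay 3307 of the library's 3314 member UMIs of Elane, Prtn3, Mpo, Camp, Ngp and Ltf, which encode granule proteins made by immature neutrophils in the marrow. No member of either knockout library held 10 or more of these UMIs. Results that rest on deep cells are therefore given with and without cells of 2500 UMIs or more, an alternative added after seeing the data. The libraries shared 35, 20 and 21 barcodes pairwise, none of them among members.

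Neutrophil identity genes that the rule did not use were detected in members. No group of monocytes was compared, so the sums below do not tell neutrophils from monocytes. Csf3r or Cxcr2 was detected in 143 wild type, 119 Mfn2 knockout and 100 Rhot1 knockout members. No UMI of S100a8 or S100a9 was found in 4, 1 and 8 members. The 22 neutrophil identity genes outside the rule summed to 13134 CPM (counts per 1000000 UMIs) in wild type, 16467 in Mfn2 knockout and 13648 in Rhot1 knockout members, and every one of them was detected in each library. In T cells of the same libraries they summed to 885, 906 and 989 CPM, and in all kept cells to 602, 627 and 476 CPM. Basophil and mast cell genes summed to at most 11.2 CPM with Mcpt8 and Cpa3 at 0. The 8 eosinophil genes, which include Siglecf, summed to 43.3, 11.2 and 37.1 CPM with Prg2 and Epx at 0. In Retnlg-positive neutrophils the eosinophil genes summed to 12.9, 6.39 and 12.5 CPM. The 12 dendritic cell genes summed to 713, 877 and 292 CPM in members, 453, 130 and 167 CPM in Retnlg-positive neutrophils and 183, 150 and 177 CPM in T cells, with Flt3, Clec9a, Cd209a and Ccr7 at 0 in members. The T and NK cell genes summed to 80.0, 0 and 84.9 CPM. The 15 monocyte and macrophage genes outside the rule were present. They summed to 1483, 2384 and 2165 CPM in members against 768, 1246 and 1196 CPM in Retnlg-positive neutrophils. With both groups held under 2500 UMIs, they summed to 784, 958 and 1035 CPM in members against 755, 716 and 635 CPM. In the T cells they summed to 904, 822 and 1090 CPM. At least 2 UMIs of monocyte markers were found in 16, 8 and 11 members, and 11, 6 and 8 of those cells were deep. Tumour cell genes summed to 830, 899 and 1051 CPM in members and to 854, 760 and 862 CPM in Retnlg-positive cells.

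The word chemokine in the label separated few cells. Among Retnlg-positive neutrophils, 95.04% in wild type, 95.4% in Mfn2 knockout and 92.7% in Rhot1 knockout also held a chemokine UMI. After each cell was thinned to 500 UMIs, Cxcl2 was detected in 95.7%, 94.0% and 92.8% of members, in 88.9%, 88.9% and 87.3% of Retnlg-positive neutrophils, and in 3.45%, 1.79% and 2.00% of T cells. Without thinning, the T cells held Cxcl2 in 23.0%, 12.5% and 8.00% of cells at medians of 2629.5, 2521.5 and 2520.5 UMIs, the background from free RNA and true expression together. The absence of Retnlg was the term that divided the gated cells. Retnlg was found in 2.30%, 3.57% and 2.00% of those T cells before thinning, the background level for this gene.

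At the edges of the rule, members with exactly 1 chemokine UMI numbered 8, 6 and 2, beside the 7, 10 and 5 Retnlg-negative cells with none. Cells with a chemokine UMI and exactly 1 Retnlg UMI numbered 54, 58 and 45. Their median share of S100a8 and S100a9 was 8.59%, 6.54% and 6.67% of UMIs, against 4.87%, 5.15% and 5.06% in members and 14.1%, 15.2% and 14.7% in all Retnlg-positive cells with a chemokine UMI.

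Members made up a smaller share of the gated neutrophils in the Mfn2 knockout library. The share was 32.6% in wild type (exact Clopper-Pearson 95% interval 29.0 to 36.4), 20.6% in Mfn2 knockout (17.9 to 23.6) and 31.2% in Rhot1 knockout (26.9 to 35.7). The Mfn2 interval lay below both others, while the wild-type and Rhot1 intervals overlapped. These intervals cover counting error only, as do all others given here. At 500 UMIs per cell the shares were 39.3%, 26.3% and 39.5%, again lowest in Mfn2 knockout. Among all kept cells, members were 2.24%, 1.69% and 1.47%, where the Mfn2 and Rhot1 intervals overlapped (1.45 to 1.97 and 1.24 to 1.74).

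**Figure D1:**
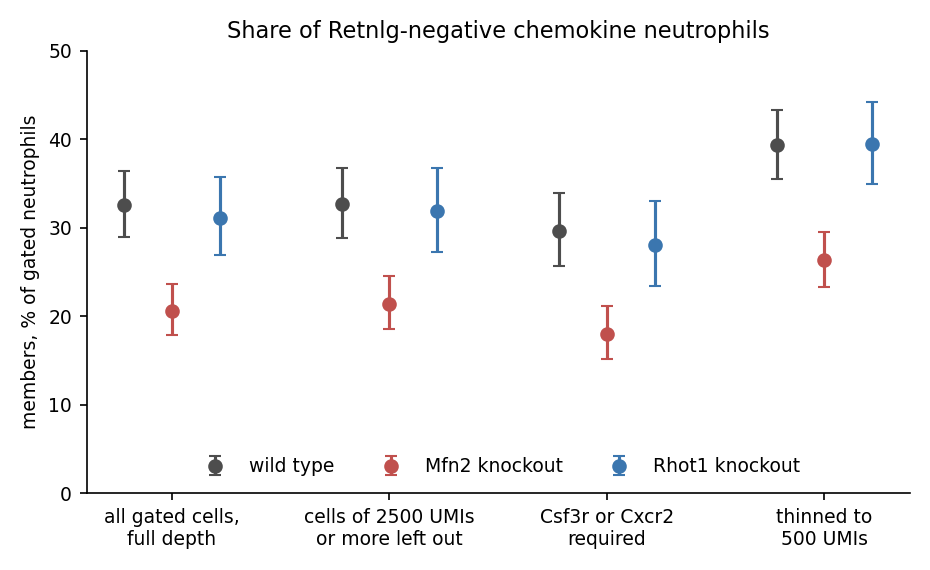
Share of members among gated neutrophils in percent (y axis) in each library, as defined and under 3 other ways of choosing cells (x axis). Points are shares with exact 95% intervals for counting error, and the Mfn2 knockout point is the lowest in all 4 groups.

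Cxcl2, the most widely detected of the 3 chemokines, was found in 99.0%, 96.4% and 98.6% of members, and Ccl3, a ligand for monocyte receptors, in 59.1%, 49.7% and 54.3%. Ccl4 was detected in 44.7%, 31.1% and 40.6%. Members that carried Cxcl2 alone were 33.7%, 41.9% and 37.7%, and 37.0%, 22.2% and 31.9% carried all 3 genes. Output was uneven: the 21, 17 and 14 cells richest in Ccl3 held 50.7%, 54.8% and 54.9% of its UMIs, while for Cxcl2 the same numbers of cells held 31.9%, 31.3% and 28.6%. The median member held 30.5, 16 and 29 Cxcl2 UMIs.

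The rule genes set members apart from Retnlg-positive cells as follows, in wild type, Mfn2 knockout and Rhot1 knockout. Ccl3 was at 3938, 2273 and 3046 CPM in members against 1787, 938 and 1413 CPM. Cxcl2 was at 29937, 20917 and 26920 CPM against 23009, 16591 and 21378 CPM. Both chemokines were higher in members of each library, Ccl3 by 2.20, 2.42 and 2.16 times. Ccl4 was 1.503, 1.01 and 1.37 times as high. S100a8, which the gate itself used, was at 35761, 35061 and 27753 CPM against 74460, 80639 and 77264 CPM, and G0s2, an inhibitor of lipid breakdown, was at 3115, 1240 and 2282 CPM against 4907, 1888 and 3250 CPM. The receptor genes Csf3r and Cxcr2 were at 596, 704 and 679 CPM and at 333, 687 and 478 CPM in members. Mfn2 and Rhot1 themselves were close to the limit of detection in members (3.33, 16.8 and 5.31 CPM for Mfn2, and 13.3, 27.9 and 10.6 CPM for Rhot1) and Dmp1 had no UMI. These levels do not check the deletion, which was aimed at other cells.

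Members were next compared with Retnlg-positive neutrophils of the same library over all genes that the rule did not use. Members held more transcripts of Clec4n, Bcl2a1b, Csf1, Il1rn and Tnf and fewer of Ly6g, Prok2, Ifitm6 and Wfdc17, and 12 of 14 genes of a mature circulating neutrophil list were lower. Of 4396 genes tested by edgeR's quasi-likelihood test with library as a block (Benjamini-Hochberg adjusted p under 0.05), 114 were higher in members (2.59% of genes tested) and 242 were lower (5.51%), together 8.10%, and 350 of these 356 moved the same way in all 3 libraries. The 3 libraries differ in host genotype and are the replicates here. Levels for this comparison are normalised CPM, scaled by TMM over UMIs outside the rule and mitochondrial genes. The count was sensitive to the libraries: without the Mfn2 knockout library 30 genes were higher and 72 lower, and DESeq2 called 28 and 101. With cells of 2500 UMIs or more left out, 83 were higher and 218 lower, and 227 of the 356 were called again.

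Ly6g, the surface antigen by which mouse neutrophils are sorted, was at 37.5, 26.4 and 12.6 normalised CPM in members against 329, 396 and 361 in Retnlg-positive cells of wild type, Mfn2 knockout and Rhot1 knockout. The groups did not overlap, and the log2 fold change was -3.70 ± 0.27 (SE; edgeR adjusted p = 8.48e-09). Prok2, a secreted chemoattractant peptide, was at 4.17, 59.4 and 25.3 in members against 166, 669 and 246 (-3.67 ± 0.28; edgeR adjusted p = 1.07e-08). Both genes passed the test in each of the 16 alternatives tried.

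Ifitm6, a membrane protein of the interferon-induced family, was at 263, 515 and 518 normalised CPM in members against 1123, 2372 and 1981 (log2 fold change -2.08 ± 0.12, edgeR adjusted p = 2.99e-10). Wfdc17, a secreted whey acidic protein-type inhibitor, was at 4142, 4551 and 4494 against 10488, 16482 and 13092 (-1.58 ± 0.08). The members' levels of Wfdc17 lay close together and far under all 3 Retnlg-positive values. Qsox1, a secreted sulfhydryl oxidase, and Mrgpra2b, a neutrophil receptor for antimicrobial peptides, had log2 fold changes of -2.23 and -2.01. Mtus1, Mapk13, Stfa3, Bmx and Padi4, which encodes the histone-citrullinating enzyme of neutrophil extracellular traps, had log2 fold changes of -2.58, -2.48, -2.12, -2.75 and -2.05. Stfa3 belongs to a cluster of near-identical stefin genes, so its reads could be shared with copies.

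Of the mature circulating neutrophil list, 12 of 14 genes tested were lower and 0 higher, with a median log2 fold change of -1.06 against 0.01 over all genes tested. Among granule proteins 10 of 13 were lower and 1, Lyz2, was higher (median -1.67). Lcn2, the iron-sequestering lipocalin, was at 1794, 2328 and 746 normalised CPM in members against 4374, 6394 and 5566. Mmp8, neutrophil collagenase, was at 134, 778 and 234 against 614, 1806 and 847. For both genes, each library's members were below its Retnlg-positive cells. Ngp, a granule protein of immature cells, was at 4347 in wild-type members, 0 in Mfn2 knockout and 6.32 in Rhot1 knockout members, against 5112, 2431 and 5561. Its wild-type value came from the 4 deep cells named above, and Ltf, lactoferrin, followed it with 634, 13.2 and 0. With deep cells left out, 5 of 8 granule genes and 9 of 13 mature neutrophil genes tested were still lower.

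Of 22 neutrophil identity genes 13 were lower and 0 higher, with a median of -0.54. With deep cells left out 9 of 22 were lower, and with cells carrying monocyte markers left out 8 of 22. Those called lower included Slpi, Trem1, Selplg, Mxd1 and Cd177, the last a surface antigen that fell by 1.43 on the log2 scale. The interferon-stimulated list had 7 lower and 0 higher of 29 (median -0.36), among them Ifitm1, Ifitm2, Ifitm3 and Isg15. Of 16 oxidase and bactericidal genes 7 were lower, including Rac2, a GTPase of the oxidase complex. Slc2a3, a glucose transporter, was at 204, 172 and 75.9 normalised CPM in members against 645, 604 and 412 (log2 fold change -1.87 ± 0.17), and with Slc16a3 and Gapdh it made up the 3 of 18 glycolysis genes that were lower.

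Clec4n, which encodes the fungal receptor Dectin-2, was at 680, 666 and 1056 normalised CPM in members of wild type, Mfn2 knockout and Rhot1 knockout, against 160, 248 and 345 in Retnlg-positive cells. The lowest member value was above the highest Retnlg-positive one, and the log2 fold change was 1.70 ± 0.15 (edgeR adjusted p = 7.30e-08). It was called in all 16 alternatives, as were Bcl2a1b, a survival factor of the Bcl2 family (259, 158 and 202 against 73.0, 43.4 and 81.9), and Arf2 (1.63 ± 0.33). Bcl2a1b has close copies among the Bcl2a1 genes, and Bcl2a1a was called higher as well. Scimp, an adaptor of immune receptors, had the largest difference of the named genes that were higher (2.81 ± 0.52), from 37.5, 39.6 and 133 against 4.06, 13.9 and 7.68 normalised CPM.

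Among growth factors and mediators 4 of 14 were higher in members (Csf1, Ptgs2, Spp1 and Tgfb1) and 3 were lower (Alox5ap, Mmp9 and Osm). Among chemokines outside the rule 1 of 10 was higher, Ccl9, and 1 lower, Ccl6. Csf1, the macrophage growth factor, was at 338, 369 and 733 normalised CPM in members against 142, 226 and 233 (log2 fold change 1.22 ± 0.17, edgeR adjusted p = 6.17e-05), and members were higher in each library. Il1rn, the antagonist of the interleukin-1 receptor, was at 1135, 693 and 1087 against 736, 304 and 502 (0.96 ± 0.14). Tnf was at 154, 46.2 and 126 against 46.6, 13.9 and 46.1 (1.62 ± 0.29), and was called in 13 of 15 alternatives. Spp1, osteopontin, was 1.67 times and Ccl9, a ligand of Ccr1, 2.36 times as high. Many of the members' Ccl9 UMIs lay in deep cells. Without deep cells they went from 151, 92 and 99 to 45, 33 and 54 in wild type, Mfn2 knockout and Rhot1 knockout. The level, as CPM outside the rule and mitochondrial genes, went from 580, 580 and 598 to 268, 259 and 466. Retnlg-positive cells under 2500 UMIs, divided by Retnlg UMIs as below, were at 94.6 to 238, 183 to 208 and 114 to 260. Cxcl3, which shares the receptor of Cxcl2, was at 3512, 2685 and 2870 against 2486, 2702 and 3181, and missed the threshold (0.12 ± 0.11, edgeR adjusted p = 0.627).

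The NF-kB list had 5 higher and 0 lower of 21 genes tested (median 0.20): Nfkbia, Ier3, Gadd45b, Traf1 and Icam1. Nfkbia was at 3863, 1985 and 2105 normalised CPM in members against 2920, 1281 and 1863, a log2 fold change of 0.40 ± 0.10. The groups overlap, because the wild-type level was high in both kinds of cell. Icam1, an adhesion molecule, held its call in 7 of 14 alternatives. Of 128 promoter windows matched to the genes higher in members, 16.4% held the NF-kB motif, against 11.1% of windows of all genes tested and 9.36% of those of lower genes. For the C/EBP motif the shares were 8.59%, 8.54% and 10.2%. The matches describe letters in these windows, and binding was not measured.

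A list of genes described in tumour neutrophils had 6 higher and 0 lower of 18 (median 0.24), namely Clec4n, Csf1, Cstb, Irak2, Nfkbia and Spp1, and again 6 of 17 with deep cells left out. Tnfrsf23, one of the genes for which that list is named, was at 250, 290 and 367 in members against 318, 269 and 259 and was not called. Siglecf, the other, was too rare to be tested. Lysosome, lipid and iron genes were higher in 7 of 22, including the ferritin chains Fth1 and Ftl1 and the lysosomal Psap, with 3 of 20 when deep cells were left out. Apoptosis and survival genes were higher in 5 and lower in 1 of 17. Of other lists, 2 of 14 chemotactic receptors (Ccr2 and Ccrl2) were higher and 0 lower, and 2 of 10 antigen presentation genes (Cd74 and H2-Aa) were higher and 1, H2-D1, lower. Cd74 and H2-Aa are also the 2 of 3 tested dendritic cell markers that were higher. With cells carrying monocyte markers left out, 0 of the 10 antigen presentation genes were higher, and with deep cells left out 1 of 7. The immediate early genes Egr1, Egr2, Egr3 and Nr4a1 were higher, 4 of 26 with 0 lower. With deep cells left out 2 of 24 were higher and 1 lower, and with cells carrying monocyte markers left out 2 of 25 were higher and 0 lower. Collagenase dissociation can raise such genes in any cell, and its part in this result was not tested.

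Monocyte genes moved with these differences. Of 12 monocyte and macrophage markers tested, 7 were higher in members and 0 lower (median 0.95), among them Fn1, Ms4a6c, Ccr2, Fcgr1, F13a1 and Arg1. With cells of 2500 UMIs or more left out, 0 of the 7 then tested were called in either direction and the median was -0.12. Fn1 and Ms4a6c were among the markers too rare to be tested there. The 2 medians thus cover different genes, and the loss of those calls was not tested. Fn1, fibronectin, was at 125, 350 and 291 normalised CPM in members against 71.0, 55.7 and 58.9, and with cells carrying monocyte markers left out its log2 fold change went from 1.97 to 0.89 (edgeR adjusted p = 0.298). Trem2 (1.82 ± 0.44), Pld4 (1.69 ± 0.33), Ms4a6c (1.64 ± 0.27) and Ifi207 (1.56 ± 0.34) were too rare to be tested under either restriction. Clec4n, Bcl2a1b and Tnf had log2 fold changes of 1.88, 1.73 and 2.27 without deep cells. Without cells carrying monocyte markers they were 1.81, 1.59 and 2.06. Whether monocytes contributed to these genes was not tested.

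**Figure D2:**
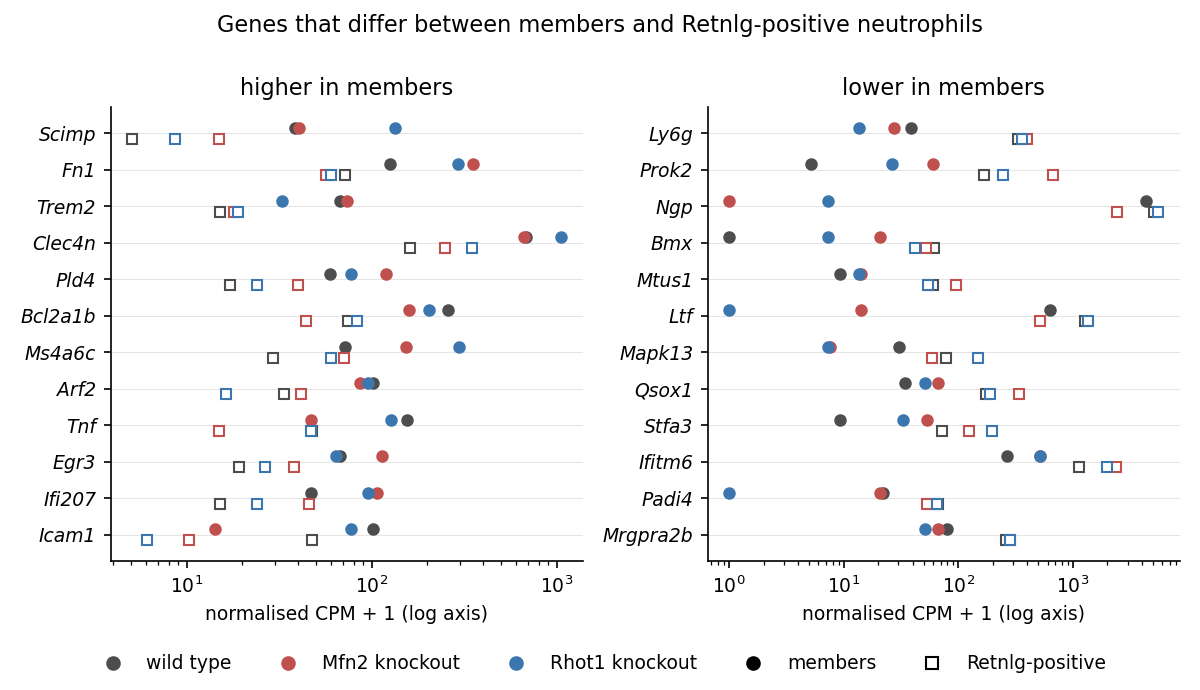
Normalised CPM plus 1 (x axis, log scale) of the 12 genes with the highest and the 12 with the lowest log2 fold change. Filled circles are members and open squares Retnlg-positive neutrophils of each library; Ly6g shows no overlap between the groups, while Ngp in wild type is high in both.

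**Figure D3:**
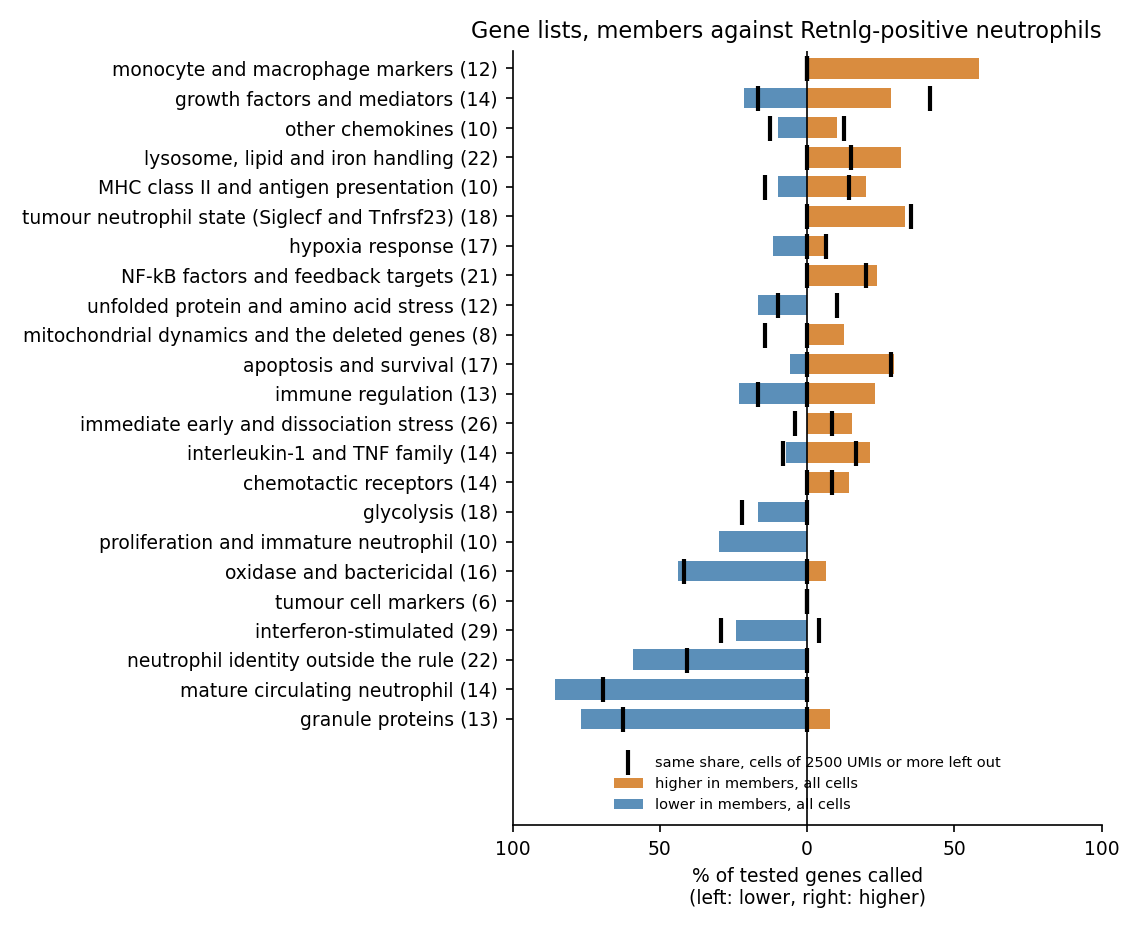
Percent of the tested genes (number in brackets) of each list with at least 5 of them, called higher (right) or lower (left) in members than in Retnlg-positive neutrophils. Bars use all cells and black ticks leave out cells of 2500 UMIs or more, with none for a list left with few tested genes. Of the lists shown, the bar of monocyte and macrophage markers is the longest to the right. Its tick is at 0 and covers only the 7 markers still tested, without Fn1 and Ms4a6c.

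Levels also differed among Retnlg-positive cells, by the amount of Retnlg per cell. Gated cells under 2500 UMIs were divided by 0 (members), 1 to 4, 5 to 19 and 20 or more Retnlg UMIs, and these bins share the cells and the rule described above, so the values are a description. S100a8 rose through the 4 bins from 31354 to 47403, 73718 and 115026 CPM in wild type. Ly6g went from 23.8 to 47.6, 277 and 611 CPM in wild type, counted outside the rule genes, from 31.5 to 682 in the outer bins of Mfn2 knockout and from 17.3 to 661 in those of Rhot1 knockout. Ccl3 ran the other way, from 5775 to 3361, 1706 and 682 CPM in wild type and from 2643 to 1954, 1312 and 543 CPM in Mfn2 knockout. In Rhot1 knockout it fell from 4072 to 3193 and 951, and then stood at 1048 CPM. Clec4n in wild type went from 786 to 231, 115 and 22.6 CPM, and Il1rn from 1489 to 1197, 763 and 317. Cells with 1 to 4 Retnlg UMIs lay between members and the richer cells for each of these genes. The median depth rose across the bins as well, from 984 to 1067, 1306 and 1702 UMIs in wild type, and its part in the gradient was not tested.

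**Figure D4:**
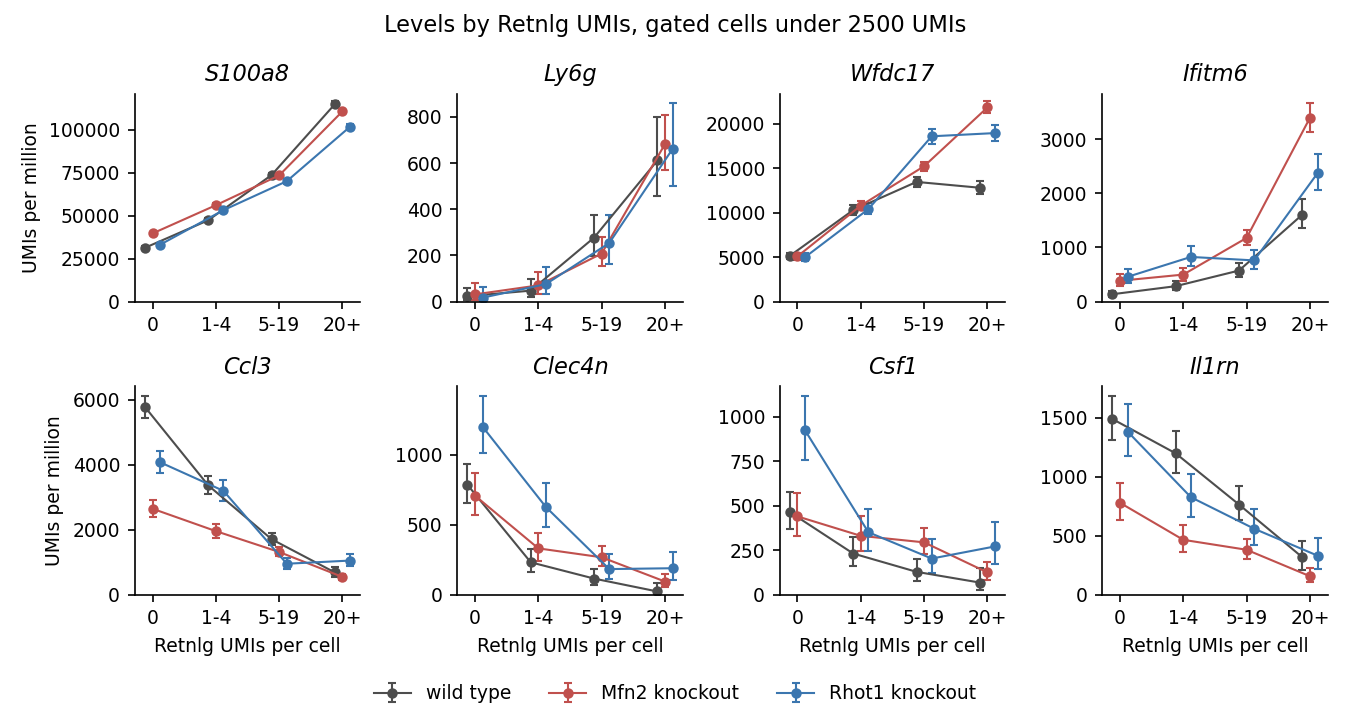
Level of 8 genes (y axis, CPM: of all UMIs for S100a8 and Ccl3, of UMIs outside the rule and mitochondrial genes for the others) in gated cells under 2500 UMIs, by Retnlg UMIs per cell (x axis), in each library with exact Poisson 95% intervals. In each library the genes of the top row are higher, and those of the bottom row lower, at 20 or more Retnlg UMIs than in members at 0; Ly6g in wild type goes from 23.8 to 611.

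Only 22 gated cells had neither Retnlg nor a chemokine UMI, with 39471 UMIs between them, so a comparison of members with them has little depth. In edgeR, 52 of 1453 genes were higher in members (3.58%) and 26 lower (1.79%), together 5.37%. The result rested on the Mfn2 knockout library, without which 1 gene was called, and on the wild type, without which 13 were. Cxcl3 had 1703 UMIs in members and 0 in the 22 cells, at least 33.6-fold higher with 3 counts over the group as the floor. Slc7a11, a cystine transporter, had 655 UMIs against 2, and Il1rn had 549 against 1. Pclaf, Birc5 and H1f5, genes of dividing cells, were lower in members, at 62.9, 79.4 and 77.9 CPM against 557, 431 and 481. They had 42, 53 and 52 UMIs in members and 22, 17 and 19 in the 22 cells.

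Between genotypes the libraries can be set side by side, each as 1 pool of 3 mice. Values are CPM of members, called means at least 1.5-fold apart among genes at 100 CPM or more in 1 of the 2 libraries, and both comparisons share the wild-type library. In Mfn2 knockout members 269 of 1584 genes were higher (17.0%) and 187 lower (11.8%), together 28.8%. In Rhot1 knockout members 222 of 1538 were higher (14.4%) and 146 lower (9.49%), together 23.9%. Differences of this size between 2 pools include variation between mice, which was not measured here.

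The rule chemokines and Il1b were lowest in the Mfn2 knockout library. Cxcl2 was at 29937 CPM in wild type (exact Poisson 95% interval 29321 to 30562), 20917 in Mfn2 knockout (20252 to 21598) and 26920 in Rhot1 knockout (26184 to 27671). Il1b, the inflammatory cytokine, was at 9492, 5612 and 9207 CPM, and Ccl4 at 2962, 1284 and 2314 CPM. Il1b was also at 8752, 4621 and 7477 CPM in Retnlg-positive neutrophils, so the order of the libraries was the same in both kinds of cell. The rule selects on these genes, and no test was made.

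Of the NF-kB factors and feedback targets, Nfkbia and Nfkbiz were lower by 1.5-fold or more in both knockout libraries. Gadd45b passed that threshold in Rhot1 knockout only, Tnfaip3 in Mfn2 knockout only, and Ier3 in neither. In Mfn2 knockout 8 of 12 genes measured were lower and 0 higher (median log2 ratio -0.89), and in Rhot1 knockout 4 of 12 were lower and 0 higher (-0.35). Over all genes, 11.8% and 9.49% were lower. Under 2500 UMIs, 9 and 7 of 12 were lower, against 224 of 1542 and 194 of 1509 of all genes. Nfkbia, the inhibitor that NF-kB induces, was at 3085 CPM in wild type, 1681 in Mfn2 knockout (ratio 0.54, exact 95% interval 0.48 to 0.62) and 1767 in Rhot1 knockout (0.57, 0.50 to 0.65). Nfkbiz, a nuclear co-factor, was at 756, 346 and 409 CPM, and Gadd45b at 1113, 771 and 631 CPM. For these genes the wild type was the highest of the 3 libraries.

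Traf1, an adaptor of TNF receptors, was at 197 CPM in wild type and 39.1 in Mfn2 knockout (ratio 0.20, 0.08 to 0.44), while at 127 CPM in Rhot1 knockout the interval reached 1 (0.65, 0.39 to 1.06). Under 2500 UMIs Traf1 was at 255, 47.9 and 88.7 CPM. Tnfaip3 had ratios of 0.53 and 1.23, and the interval of the second included 1 (0.76 to 1.97). Ier3, an early response gene, was at 3962, 3758 and 4112 CPM. In Retnlg-positive neutrophils, 7 and 4 of 9 genes of the list were lower. Of all genes in those cells, 10.3% were lower in Mfn2 knockout, so there the difference was not confined to members. The share of all genes for Rhot1 knockout is not given here. Thinned to 500 UMIs, the Rhot1 comparison within members had 5 lower and 3 higher of 14, against 267 lower and 308 higher of all 1593 genes.

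Atf3, a stress-induced transcription factor, was at 420 CPM in wild type, 145 in Mfn2 knockout (ratio 0.35, 0.22 to 0.53) and 138 in Rhot1 knockout, and Tgm2, tissue transglutaminase, at 303, 106 and 84.9 CPM (0.28 in Rhot1 knockout, 0.15 to 0.48). Under 2500 UMIs the same ratios were 0.35 and 0.26. Of the 19 immediate early genes measured, 4 were lower in Mfn2 knockout and 3 in Rhot1 knockout, with 0 higher, 15.8% in Rhot1 knockout against 9.49% of all genes. Thbs1, thrombospondin, was at 3169, 1960 and 2070 CPM, and Osm, oncostatin M, at 423, 179 and 419. Csf1 was higher in Rhot1 knockout alone, at 270, 313 and 616 CPM, with a Rhot1 ratio of 2.28 (1.70 to 3.07).

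Stefins, which inhibit cysteine proteases, and Mmp8 were higher in Mfn2 knockout members. Mmp8 was at 107 CPM in wild type, 659 in Mfn2 knockout and 196 in Rhot1 knockout, and the Mfn2 ratio was 6.18 (4.15 to 9.44). Stfa2l1 was at 730, 2658 and 1587 CPM, with a Mfn2 ratio of 3.64 (3.10 to 4.29), and Cstdc4 at 1463, 4071 and 2245 CPM (2.78, 2.47 to 3.14). Both were highest in Mfn2 knockout and lowest in wild type. Csta2 had ratios of 3.30 in Mfn2 knockout and 3.13 in Rhot1 knockout, on 30 wild-type UMIs. Stfa2 and Cstdc5 had Mfn2 ratios of 17.6 (6.38 to 67.6) and 21.8 (6.93 to 110), on 4 and 3 wild-type UMIs. These genes are close copies in 1 cluster, and reads could be shared among them. Under 2500 UMIs the ratios of Mmp8, Stfa2l1 and Cstdc4 were 6.18, 2.91 and 2.21. In Retnlg-positive neutrophils the Mfn2 ratios of the same 3 genes were 2.86, 2.22 and 2.09.

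Interferon-stimulated genes were higher in Rhot1 knockout with all members counted, but near the share of all genes when Csf3r or Cxcr2 was required. Of 19 genes measured 15 were higher and 0 lower (median log2 ratio 0.93), and in Mfn2 knockout 6 of 14 with 0 lower (0.51). Over all genes, 14.4% were higher in Rhot1 knockout and 17.0% in Mfn2 knockout. Isg15, a ubiquitin-like modifier, was at 257, 430 and 541 CPM, Slfn1 at 390, 771 and 743 CPM, and Ifitm1 at 3522, 5377 and 5296 CPM. Wild type was the lowest of the 3 for each. Ifit3 and Ifit1 had Rhot1 ratios of 9.16 (3.13 to 36.4) and 7.01 (2.59 to 23.7), on 4 and 5 wild-type UMIs. Cxcl10, a ligand of Cxcr3, was at 80.0 CPM in wild type and 244 in Rhot1 knockout (3.05, 1.83 to 5.23), and 1 cell held 54.2% of its wild-type UMIs. Under 2500 UMIs, 10 of 19 were higher in Rhot1 knockout and 5 of 17 in Mfn2 knockout with 2 lower. Over all genes, 218 of 1509 and 286 of 1542 were then higher. When Csf3r or Cxcr2 was required, 2 of 14 were higher and 2 lower in Rhot1 knockout. Of all 1583 genes, 259 were then higher and 198 lower. In Retnlg-positive cells, 2 of 11 and 4 of 13 were higher in Rhot1 and Mfn2 knockout. Of all genes in those cells, 10.5% were higher in Mfn2 knockout. The share for Rhot1 knockout is not given here, so its count has no background beside it.

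The most extreme ratios came from few cells. Camp, Ngp, Elane, Prtn3 and Ltf were lowest in both comparisons: Camp was at 4781 CPM in wild type and had no UMI in either knockout, at least 285-fold and 300-fold lower with 3 counts per library as the floor. The 4 deep wild-type cells carried nearly all of these UMIs, and below 2500 UMIs Camp had none in any library. Granule genes therefore changed direction: 9 of 15 were lower and 3 higher in Mfn2 knockout with all members (median log2 ratio -1.01), against 0 lower and 4 higher of 7 without deep cells (0.60). In Rhot1 knockout 10 of 15 were lower and 1 higher (-1.27), against 0 lower and 2 higher of 7 (0.31). Of all genes, 11.8% were lower in Mfn2 knockout and 9.49% in Rhot1 knockout with all members. Without deep cells, 286 of 1542 genes were higher in Mfn2 knockout and 218 of 1509 in Rhot1 knockout. A single wild-type cell held 97.5% of the UMIs of Mmp12, a macrophage elastase at 263 CPM, and Hmgn2 had ratios of 0.22 and 0.21 that became 1.68 and 1.45.

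Monocyte genes were uneven as well. Ms4a6c was at 56.6 CPM in wild type and 249 in Rhot1 knockout (4.403, 2.48 to 8.18), and its ratio was 1.45 (0.33 to 6.31) without deep cells. Fn1 had ratios of 2.96 and 2.44 in Mfn2 and Rhot1 knockout, which became 0.58 and 1.04. Ctsc had a Rhot1 ratio of 2.29 that became 0.91, and Pf4, a platelet chemokine, a Mfn2 ratio of 3.13 that became 1.27, with 62.5% of its knockout UMIs in 1 cell. Gbp2, an interferon-induced GTPase, Dync1i2, a dynein chain, and Tarm1, an activating receptor of myeloid cells, had Rhot1 ratios of 2.42, 3.12 and 2.57, and 1.66, 2.28 and 2.44 without deep cells. The intervals of the last 2 excluded 1 in both cases.

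**Figure D5:**
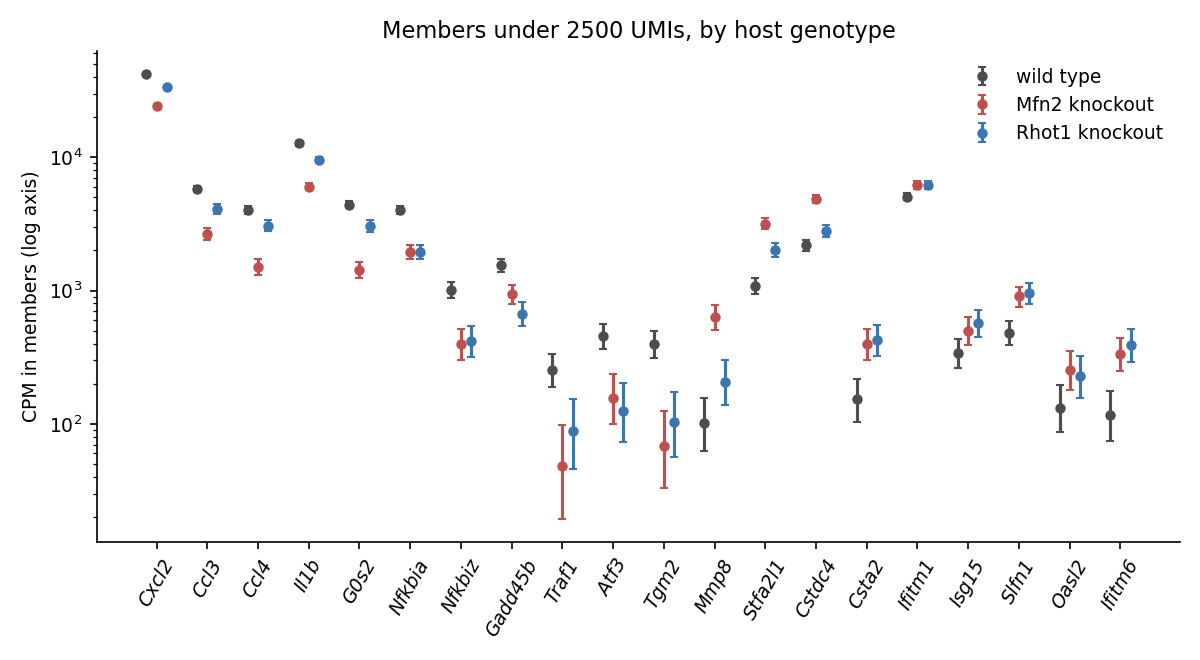
CPM of 20 genes (y axis, log scale) in members under 2500 UMIs of each library, with exact Poisson 95% intervals for counting error. Wild type is the highest of the 3 libraries for Nfkbia, Nfkbiz, Gadd45b, Traf1, Atf3 and Tgm2, and the lowest for Mmp8, Stfa2l1, Csta2 and Slfn1.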

How the data were processed

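Single-cell UMI counts per gene and barcode were deposited by the authors as filtered matrices of 3 libraries, with mm10 as the build per the submitters' processing notes and Cell Ranger 7.0.0 as the software named in the headers. Members and gene lists were chosen with earlier results of these data known. Counts were summed per library and cell group and compared with edgeR 4.0.16 in R 4.3.3 (quasi-likelihood test, TMM, filterByExpr, library as a block because both groups come from the same pool), leaving out the 16 rule genes and mitochondrial genes. Named genes were those called at adjusted p under 0.05, at 50 CPM or more in either group and changed the same way in all libraries, the 12 highest and 12 lowest. For genotype ratios they were the 8 highest and 8 lowest at 200 CPM or more, leaving out genes whose CPM in members was under 50% of that in all kept cells in both libraries. Up to 4 genes at each end of a list were also named, and genes named beyond these were chosen after their values were seen. Ribosomal, haemoglobin, immunoglobulin and unnamed genes were not named. Ratios have exact conditional, levels exact Poisson and shares exact Clopper-Pearson 95% intervals, for counting error only. Totals were 112088653 to 118223251 UMIs per library. Scrublet marked 1, 0 and 1 members as doublets, and they were kept. T cells were kept cells outside the neutrophil gate with 3 or more UMIs of Cd3d, Cd3e and Cd3g, under 2 monocyte marker UMIs and the same limits on C1q and keratin genes. On simulated counts, the edgeR comparison of members with Retnlg-positive cells called 47.2% of 2-fold and 16.3% of 1.5-fold changes. Of its calls, 1.75% were false. A gene that was not called is therefore not shown to be unchanged. For the genotype ratios, 91.5% and 91% of simulated 2-fold changes passed 1.5-fold in the Mfn2 and Rhot1 comparisons, with counting error only. With library as a block, the p-values measure how alike the difference between cell groups was across 3 libraries, each a pool of 3 mice of another genotype. They do not measure the spread between mice.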

Additional observations from a re-analysis of the deposited data

How the results depend on the processing

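Members hold a median of 886 to 1096.5 UMIs, which limits what can be tested in them. Of the 24 genes named between members and Retnlg-positive neutrophils, none changed direction under any alternative that could test it. The 114 higher and 242 lower genes became 52 and 127 when Csf3r or Cxcr2 was required, 66 and 139 with cells thinned to 500 UMIs, 28 and 101 with DESeq2, and 34 and 96 with no replicate block for library. Leaving out 1 library gave 30 to 105 higher and 72 to 202 lower genes. Against cells without chemokine UMIs, the 78 calls became 22 when Csf3r or Cxcr2 was required, 27 with 2 chemokine UMIs or more, 27 with DESeq2, 50 with no replicate block, and 1 to 113 when a library was left out. The causes were not tested.

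Member shares moved from 32.6%, 20.6% and 31.2% to 39.3%, 26.3% and 39.5% at 500 UMIs per cell, and with 500 genes or more to 28.1% in wild type and 14.9% in Mfn2 knockout. Genes past 1.5-fold numbered 456 and 368 in Mfn2 and Rhot1 knockout, 1123 and 967 at 50 CPM or more, 161 and 124 at 200 CPM or more, and 575 in Rhot1 knockout at 500 UMIs per cell.

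Some log2 ratios within members changed sign. With cells of 2500 UMIs or more left out, Mfn2 knockout gave -0.80 for Fn1 and 0.75 for Hmgn2, and Rhot1 knockout gave -0.14 for Ctsc and 0.54 for Hmgn2. Medians became 0.60 and 0.31 for granule genes in Mfn2 and Rhot1 knockout, 0.0435 for glycolysis in Rhot1 knockout and -0.12 for monocyte markers against Retnlg-positive cells. At 500 UMIs per cell, Hmgn2 was 0.91 and 1.01, granule genes 0.33 and 0.23, and in Rhot1 knockout Ctsc was -0.0102, Fn1 -0.35, Ltf 1.94 and monocyte markers -0.65. Without cells carrying monocyte markers, Rhot1 knockout gave -0.45 for Ctsc, -1.32 for Fn1 and -0.90 for monocyte markers. When Csf3r or Cxcr2 was required, it gave -0.16 for Ctsc and 0.0185 for glycolysis. These settings leave fewer cells or UMIs, and some genes of a list could then not be measured.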

Other observations

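Glycolysis genes can also be set side by side between genotypes, with 1 pooled library each and no test. Of 15 glycolysis genes measured, 3 were higher in Mfn2 knockout and 0 lower (median log2 ratio 0.33), against 17.0% higher of all genes, and in Rhot1 knockout 0 were higher and 2 lower (-0.04). In Retnlg-positive neutrophils 7 of 15 were higher in Mfn2 knockout and 0 lower, against 10.5% higher of all genes, and in Rhot1 knockout 1 was higher and 1 lower. Pfkl, a phosphofructokinase subunit, was at 127 CPM in wild type, 257 in Mfn2 knockout and 106 in Rhot1 knockout. Hmox1, which degrades haem, was at 333, 793 and 260 CPM, a Mfn2 ratio of 2.38 (exact 95% interval 1.83 to 3.11). Txnip, an inhibitor of thioredoxin and glucose uptake, was at 227, 614 and 478 CPM. Cd274, the ligand of PD-1, was at 247, 112 and 244 CPM, and in Retnlg-positive neutrophils at 231, 124 and 109 CPM. Whether the 2 comparisons differ was not tested.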
